A study of Mus musculus with 9 samples.

Results

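The expression of 10 immediate-early and activity-dependent genes was followed in the retina of rd10 mice, chosen by gene symbol from the 22337 genes of the expression table: the orphan nuclear receptors Nr4a1, Nr4a2 and Nr4a3, the zinc-finger transcription factors Egr1, Egr2, Egr3 and Egr4, and the activity-dependent genes Arc, Npas4 and Ier2. All 10 were found in the table, each as 1 gene. RNA-seq was performed on 3 retinal libraries from each of 3 groups at postnatal day 28 (P28). The WT group was C57 BL/6J mice that were not treated. The NS group was rd10 mice, which carry a mutation in the rod phosphodiesterase gene Pde6b and lose their rods, given normal saline in both eyes. The MSC-EVs group was rd10 mice given extracellular vesicles from human umbilical cord mesenchymal stem cells. Both rd10 groups received 1 µL at P14 and again at P21, so WT differed from them in genotype and in injection together. The labels do not say how many animals made up a library, so p-values measure only the spread between these libraries.

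Immediate-early genes are switched on within minutes of a stimulus such as synaptic activity, a growth factor, injury or an inflammatory signal, without the need for new protein. CREB, acting through the cAMP response element (CRE), and SRF with its ternary complex partners, acting through the CArG box, are the best known activators. The NR4A and EGR proteins then act as transcription factors in turn, NR4A through the NBRE and EGR through GC-rich sites. In retina these genes are known for their response to light in neurons and to injury in Müller glia and microglia.

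Sequences that bear on their regulation are shown first. The 3′ untranslated regions are those of GENCODE M21, and the promoters come from the RefSeq tables for GRCm38.p6. Of the 10 genes, 6 have promoters there (Nr4a1, Nr4a2, Nr4a3, Egr4 and Npas4 with 1 annotated start each and Egr2 with 5), 10 promoters in all. The CRE (TGACGTCA), its 5-base core (TGACG), the NBRE (AAAGGTCA), 2 EGR sites (GCGTGGGCG and GCGGGGGCG) and the CArG box were searched on both strands of the 300 bases around each start. A full CRE also counts as a core. The core was present in 8 of these 10 promoters, against 20.8% of the 32851 promoters in the table, and the exceptions were a pair of Egr2 starts. Counted by gene, all 6 genes had it in at least 1 promoter, against 23% of the 27025 genes. A full CRE was present in 0 of the 10 promoters (1.79% of all promoters), an NBRE in 0 (1.51%) and GCGTGGGCG in 0 (0.612%). An EGR site of the form GCGGGGGCG lay in 1 of them, that of Nr4a1 (2.91% of all promoters), and a CArG box in 4, all of Egr2, of which 3 hold the same site (1.63%). The 30-base window before the start with the most motif bases is given for each gene, 5′ to 3′ on the strand of the gene. Capitals mark the CRE core or its reverse complement, with the EGR site in Nr4a1 and the CArG box in Egr2 also in capitals.
Nr4a1, chr15:101266771-101266800 (+): cgtgtgCGTCAgtggCGCCCCCGCccctct
Nr4a2, chr2:57124120-57124149 (-): cgCGTCAcggagcccggccgggcTGACGgg
Nr4a3, chr4:48045070-48045099 (+): agggTGACGtagcgtcccatgtCGTCAcat
Egr2, chr10:67537793-67537822 (+): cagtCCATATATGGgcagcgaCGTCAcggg
Egr4, chr6:85513750-85513779 (-): gcggcggcagcaaCGTCAcaggccgagctt
Npas4, chr19:4990129-4990158 (-): ccgttcgaCGTCAcgggaTGACGtcggaag

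The study examined miR-146a-5p, a miRNA known for its part in inflammatory signalling, as vesicle cargo together with Nr4a3. Its mature mouse sequence (chr11:43374435-43374456, minus strand) is shown with the seed, bases 2 to 8, in capitals, followed by the matches found in annotated 3′ untranslated regions of the 10 genes. Capitals mark the match to bases 2 to 8 (Nr4a3 and Npas4), or to bases 2 to 7 followed by A (both Egr3 sites).
mmu-miR-146a-5p: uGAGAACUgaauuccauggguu
Nr4a3, chr4:48084275-48084303 (+): aacctggacagAGTTCTCtaaacctactt
Npas4, chr19:4984736-4984764 (-): gggcctgggccAGTTCTCcactcctaggg
Egr3 first site, chr14:70080878-70080906 (+): tttccctctcagGTTCTCActgagtctct
Egr3 second site, chr14:70082053-70082081 (+): tttaataaaactGTTCTCAgacatttaag
Such a match was held by 3 of the 10 genes, against 4027 of 21007 genes with an annotated 3′ untranslated region (19.2%). The Nr4a3 match began at base 934 of a region of 3093 bases. The paper counted Nr4a3 among the genes lowered by MSC-EVs in this RNA-seq. It also reported the fall by qPCR in retina and in photoreceptor-like and microglial cell lines. Its abstract states that a miR-146a mimic lowered Nr4a3 in both cell lines and that inhibition raised it. In addition, the paper predicted binding sites for this miRNA in the Nr4a3 3′ untranslated region and tested them in a luciferase reporter assay. It reported lower reporter activity with miR-146a, and less lowering when a predicted site was mutated. Which of those sites the Nr4a3 match shown here corresponds to was not examined. By itself, a match in these letters is a description of the sequence and not evidence of a bound site.

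Library totals ran from 19491721 to 28545647 counts in 8 libraries and reached 62532357 in MSC-EVs replicate 3. Values below are CPM, counts scaled to library size with TMM normalization, unless FPKM is named. The retina of the rd10 groups differed from WT in its cell type markers: the summed level of 12 rod markers was 81100 to 87000 CPM in WT and 16400 to 24100 in the rd10 libraries, that of 12 microglia and macrophage markers 90.9 to 95.5 and 485 to 826, and that of 7 gliosis markers 337 to 348 in WT, 1680 to 2210 in the NS group and 2250 to 2940 in the MSC-EVs group. In bulk tissue, fewer cells of a type and less RNA per cell cannot be told apart, and the part of these shifts in the results below was not tested. A pair of libraries stood apart from the rest, since 4379 and 4421 counts fell on the Y-linked genes Kdm5d, Uty, Ddx3y and Eif2s3y in MSC-EVs replicates 1 and 2, against 7 to 23 in the other libraries. The labels do not give the sex of the mice. No WT or NS library held Y-linked counts at that level. Sex and treatment therefore cannot be fully told apart in the comparisons with the MSC-EVs group. Results for the MSC-EVs group are for this reason also given without MSC-EVs replicates 1 and 2 for some of the genes.

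Levels of the 10 genes spanned more than 2 orders of magnitude on the length-scaled FPKM scale. In WT, Egr1 was highest at 32.3 ± 2.77 FPKM (SD, n = 3), followed by Nr4a1 at 23.4 ± 1.77, Ier2 at 8.42 ± 1.08 and Nr4a2 at 3.41 ± 0.318, and the ranges of these 4 genes did not touch. Npas4, Egr4, Nr4a3, Egr3 and Arc followed between 1.56 and 0.933 FPKM with each range overlapping the next. Egr2 was lowest at 0.127 ± 0.0208 FPKM, apart from Arc. In the NS group Egr1 (47.6 ± 1.13 FPKM), Nr4a1 (27.2 ± 1.72) and Ier2 (10.2 ± 0.899) kept the first places, Nr4a3 (4.32 ± 1.12) stood beside Nr4a2 (4.15 ± 0.785) with overlapping ranges, and Egr4 was last at 0.577 ± 0.261. In the MSC-EVs group Egr1 (27.6 ± 12.2 FPKM) and Nr4a1 (19.2 ± 4.47) overlapped, and from Nr4a2 down to Arc every range overlapped the next.

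**Figure D1:**
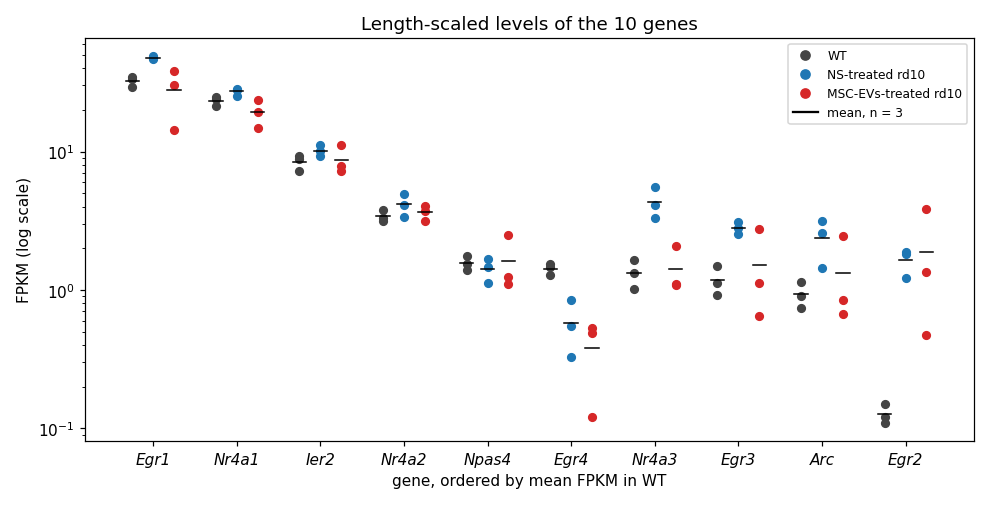
Level of each gene in each library in FPKM (log axis), with genes ordered by their WT mean, points for libraries and a short line for the mean of 3. Egr1 is at the top in all 3 groups, and Egr2 is at 0.11 to 0.15 FPKM in WT against 0.47 to 3.82 in the rd10 libraries.

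The first comparison set NS-treated rd10 retina against WT and asks how the degenerating retina differed at P28. An adjusted p of 0.05 in edgeR was passed by 6 of the 10 genes. Egr2, Nr4a3, Arc, Egr3 and Egr1 rose, in that order of size, and Egr4 fell. Nr4a1, Nr4a2, Npas4 and Ier2 did not pass. Of all 14644 genes tested, 31.2% were called higher and 30.1% lower, so the 5 of 10 called higher and 1 of 10 called lower are to be read against a retina in which most genes moved. When a log2 fold change of 1 or more in size was also required, 5 of the 10 were called, against 12.7% of all genes. The groups did not overlap for the 5 genes called higher (33.6% of all genes) and for Egr4 (33.4% of all genes did not overlap on the lower side). The median log2 fold change of the 10 genes was 0.25, against 0.01 over all genes.

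**Figure D2:**
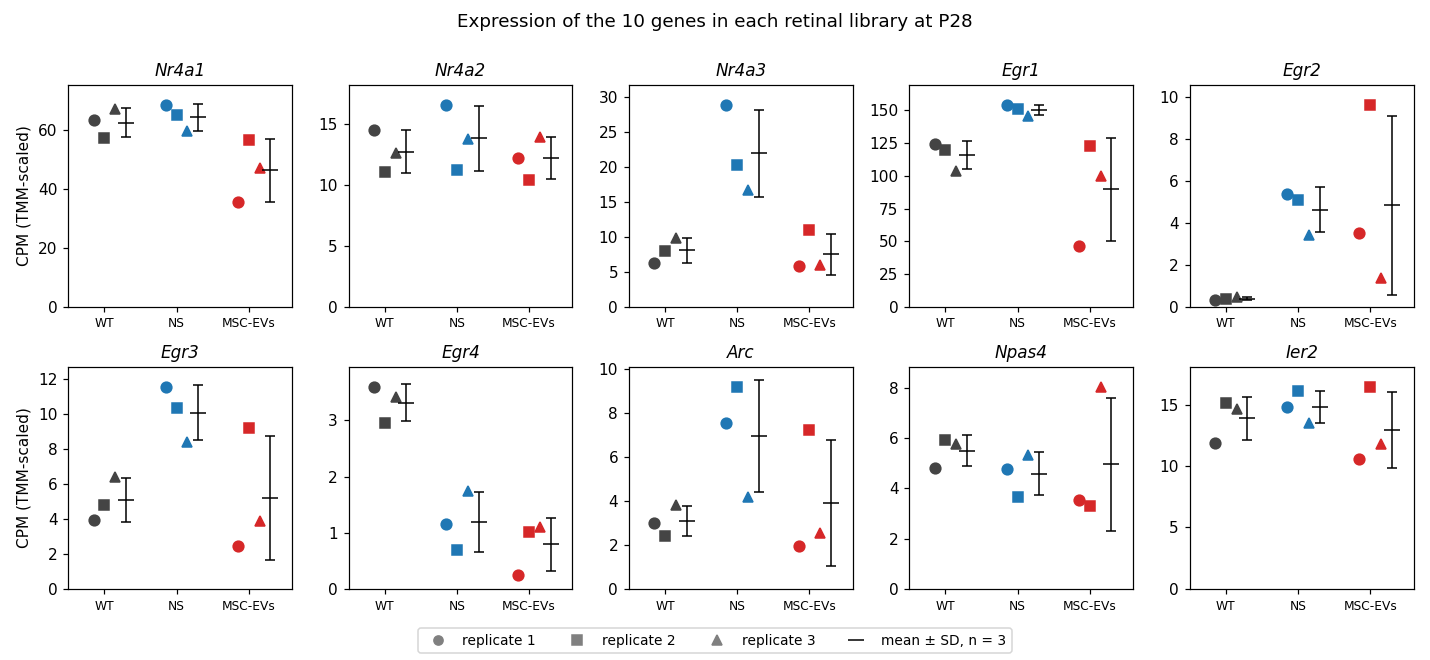
CPM of each gene in each library (points, with shapes for replicates 1 to 3) and the group mean ± SD (n = 3) at the right of each group, every axis starting at 0. Nr4a3 lies between 16.7 and 28.8 CPM in the NS group and between 5.76 and 10.9 in the other groups, and the MSC-EVs libraries spread widely for Egr1, Egr2, Egr3 and Arc.

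Nr4a3 (ENSMUSG00000028341, chr4:48045153-48086447, plus strand, GRCm38) was the member of the NR4A family that changed. It measured 6.28, 7.97 and 9.87 CPM in WT and 28.8, 20.2 and 16.7 CPM in the NS group. Every NS library lay above every WT library. The log2 fold change was 1.46 ± 0.24 (SE), a 2.75-fold rise (adjusted p = 0.00115, edgeR). As a share of the summed FPKM of the NR4A family, Nr4a3 made up 3.52% to 5.55% in WT and 10.1% to 14.2% in the NS group. Nr4a1 (ENSMUSG00000023034, chr15:101254269-101274795, plus strand) measured 63.5, 57.3 and 67.2 CPM in WT and 68.6, 65.1 and 59.7 CPM in the NS group. These ranges overlapped, and the log2 difference was 0.04 ± 0.08 (adjusted p = 0.631, edgeR). Nr4a2 (ENSMUSG00000026826, chr2:57106830-57124003, minus strand), known for its role in dopaminergic neurons, measured 14.5, 11 and 12.6 CPM in WT and 16.5, 11.2 and 13.7 CPM in the NS group. It too overlapped between the groups (log2 difference 0.13 ± 0.15, adjusted p = 0.455, edgeR).

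The EGR family changed in both directions. Egr2 (ENSMUSG00000037868, chr10:67535475-67542188, plus strand), known as Krox20 and for its roles in myelinating glia and in macrophages, measured 0.314, 0.358 and 0.451 CPM in WT, which is 7, 8 and 9 counts. In the NS group it measured 5.40, 5.09 and 3.43 CPM, or 160, 104 and 75 counts. It was close to absent from WT and present in every NS library, with a log2 fold change of 3.63 ± 0.30, a 12.3-fold rise (adjusted p = 6.96e-07, edgeR). Because WT rests on so few counts, the size of this fold is less certain than its direction.

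Egr3 (ENSMUSG00000033730, chr14:70077203-70082614, plus strand), a family member induced by neuronal activity and by antigen receptors, measured 3.95, 4.79 and 6.41 CPM in WT and 11.5, 10.3 and 8.37 CPM in the NS group. The log2 fold change was 1.00 ± 0.18 (adjusted p = 0.000515, edgeR). Egr1 (ENSMUSG00000038418, chr18:34859823-34864984, plus strand), the most abundant of the 10 genes, measured 124, 120 and 104 CPM in WT and 154, 151 and 146 CPM in the NS group. Its rise was small but larger than the spread between libraries, at a log2 fold change of 0.38 ± 0.07 (adjusted p = 0.000527, edgeR). Egr4 (ENSMUSG00000071341, chr6:85511121-85513589, minus strand) went the other way. It measured 3.59, 2.95 and 3.41 CPM in WT and 1.15, 0.685 and 1.74 CPM in the NS group, with 14 to 38 counts behind the NS values. The log2 fold change was -1.47 ± 0.29 (adjusted p = 0.000784, edgeR), a 2.77-fold lower level.

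Of the remaining genes, Arc (ENSMUSG00000022602, chr15:74669083-74672570, minus strand), which encodes a postsynaptic protein that controls AMPA receptor removal, measured 3.01, 2.42 and 3.81 CPM in WT. It measured 7.53, 9.15 and 4.16 CPM in the NS group, where replicate 3 lay just above the highest WT library. The log2 fold change was 1.18 ± 0.28 (adjusted p = 0.00428, edgeR). Npas4 (ENSMUSG00000045903, chr19:4984355-4990316, minus strand), a calcium-induced transcription factor of neurons, measured 4.80, 5.95 and 5.76 CPM in WT and 4.76, 3.67 and 5.35 CPM in the NS group, and these ranges overlapped (log2 difference -0.26 ± 0.17, adjusted p = 0.221, edgeR). Ier2 (ENSMUSG00000053560, chr8:84661331-84662852, minus strand), a nuclear protein induced early by growth factors, measured 11.9, 15.1 and 14.6 CPM in WT and 14.8, 16.1 and 13.5 CPM in the NS group (log2 difference 0.09 ± 0.11, adjusted p = 0.502, edgeR).

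The 6 calls held when each library was left out in turn, in fits that called 7799 to 9110 of all genes. With all 9 libraries in 1 fit, which shares the wider spread of the MSC-EVs group, Nr4a3, Egr2 and Egr4 stayed called, whereas Egr1 (adjusted p = 0.338), Egr3 (adjusted p = 0.0767) and Arc (adjusted p = 0.0753) in edgeR did not. Of all 14908 genes, 8599 were called in that fit.

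**Figure D3:**
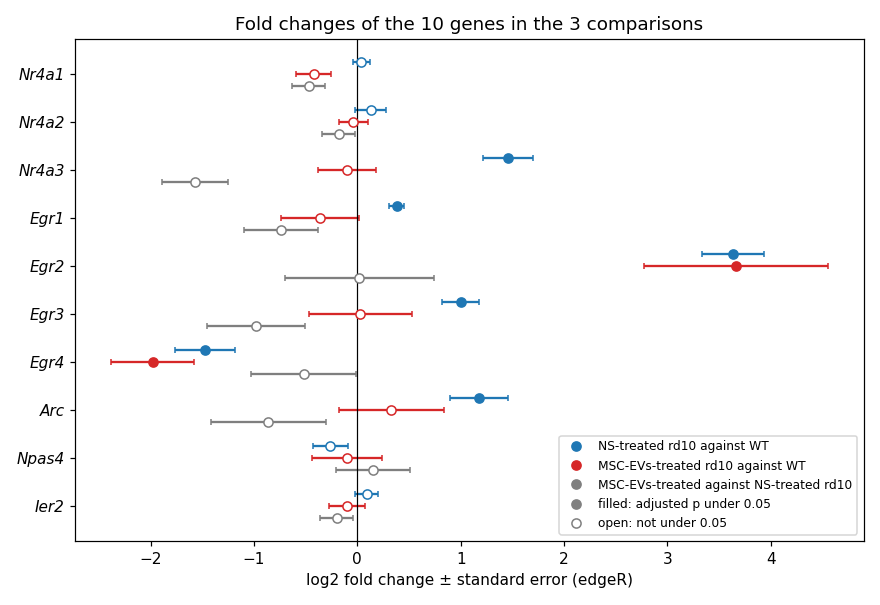
Log2 fold change ± SE of each gene in the 3 comparisons (edgeR), filled where the adjusted p was under 0.05. For NS against WT, 5 points are filled to the right of 0 and Egr4 alone to the left; none is filled for MSC-EVs against NS.

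The second comparison set MSC-EVs-treated rd10 retina against WT. It shares its WT libraries with the first, so both sets of values are given side by side and the difference between them is addressed only by the third comparison. The threshold was passed by 2 of the 10 genes. Egr2 was higher and Egr4 was lower than in WT, against 28.3% of 14623 genes called higher and 27.2% called lower. The groups did not overlap for Egr2 on the higher side (31.9% of all genes) and for Egr4 and Nr4a1 on the lower side (33.2% of all genes). The median log2 fold change of the 10 genes was -0.10, against 0 over all genes.

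Egr2 measured 3.50, 9.63 and 1.38 CPM in the MSC-EVs group (84, 226 and 88 counts), all above the WT range of 0.314 to 0.451 CPM. The log2 fold change was 3.66 ± 0.89 (adjusted p = 0.0149, edgeR). The call was lost without any 1 of the WT libraries (adjusted p = 0.0511 to 0.0578, edgeR). The log2 fold change was 1.87 when MSC-EVs replicate 3, without Y-linked counts, alone stood for the group. In that fit the spread comes from the WT libraries only, and the single MSC-EVs library is assumed to vary as they do. Egr4 measured 0.25, 1.02 and 1.11 CPM in the MSC-EVs group (6, 24 and 71 counts), below the WT range of 2.95 to 3.59 CPM, with a log2 fold change of -1.98 ± 0.40 (adjusted p = 0.00239, edgeR). Nr4a1 measured 35.5, 56.9 and 47.1 CPM, all below WT, but its log2 difference of -0.42 ± 0.17 did not pass in edgeR's quasi-likelihood test (adjusted p = 0.0656). Nr4a1 did pass in DESeq2 (adjusted p = 0.00818) and in edgeR's exact test (adjusted p = 0.0157). It also passed with all 9 libraries in 1 edgeR fit (adjusted p = 0.0288). These settings called 7625 and 7978 of 14623 genes and 8265 of 14908. With MSC-EVs replicate 3 alone the log2 difference of Nr4a1 was -0.41. Without MSC-EVs replicate 2, Nr4a1 (adjusted p = 0.00454, edgeR) and Nr4a3 (adjusted p = 0.049, edgeR) were also called, both lower than in WT. That fit called 8059 of all 14718 genes. Without MSC-EVs replicate 3, Npas4 was called lower than in WT (adjusted p = 0.0108, edgeR), in a fit that called 8426 of 14848 genes. With replicate 3 alone, the log2 difference of Npas4 from WT was 0.55.

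The other genes called in NS against WT were not called against WT in the MSC-EVs group, where most of them spread widely. Egr1 lay below WT on average by about as much as it lay above WT in the NS group. The log2 differences from WT were -0.10 ± 0.28 for Nr4a3, -0.36 ± 0.38 for Egr1, 0.03 ± 0.50 for Egr3 and 0.33 ± 0.51 for Arc, where the first comparison gave 1.46, 0.38, 1.00 and 1.18. For Egr1, Egr3 and Arc the standard error was 0.38 or more, so a difference from WT of the size seen in the NS group was not excluded by these libraries.

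The third comparison set MSC-EVs against NS treatment in rd10 mice and asks how the vesicles changed the degenerating retina. In edgeR 0 of the 10 genes passed an adjusted p of 0.05, and 2 of them, Nr4a3 and Nr4a1, had an unadjusted p under 0.05, as had 20.2% of all 14765 genes. The calls over all genes were few, at 0.914% higher and 0.251% lower. A negative log2 difference was found for 8 of the 10 genes, with a median of -0.50 against 0 over all genes. The groups did not overlap on the lower side for 3 genes, Nr4a1, Nr4a3 and Egr1, against 13.3% of all genes, and for none on the higher side, against 12.9%. Some marker sums also did not overlap between the rd10 groups: gliosis was higher in the MSC-EVs group (above, with 2 of 7 markers called higher), and retinal pigment epithelium (658 to 779 CPM in the NS group, 468 to 582 in the MSC-EVs group) and Müller glia (8510 to 10000 and 8080 to 8180 CPM) were lower, with 0 of 11 and 0 of 8 markers called in edgeR. The retinal pigment epithelium and Müller glia lists share the gene Rlbp1, so their sums are not independent. The part of these marker sums in the values below was not tested.

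Nr4a3 measured 28.8, 20.2 and 16.7 CPM in the NS group and 5.76, 10.9 and 5.89 CPM in the MSC-EVs group, so that every MSC-EVs library lay below every NS library. The log2 difference was -1.57 ± 0.32, a 2.96-fold lower mean, which missed the threshold in edgeR's quasi-likelihood test (adjusted p = 0.0752). It passed in DESeq2 (adjusted p = 7.23e-07), in edgeR's exact test (adjusted p = 3.52e-05) and with all 9 libraries in 1 edgeR fit (adjusted p = 0.0242), settings that called 947, 774 and 1026 of all genes against 172 in the main test, and in limma on log2(FPKM + 1) (adjusted p = 0.0416). It missed in edgeR with DESeq2 size factors (adjusted p = 0.0766), upper-quartile scaling (0.0749), no filter (0.0999), a minimum of 10 counts (0.0724) and Y-linked expression as a covariate (0.158). Its direction was the same in all of the alternatives run. In the MSC-EVs group Nr4a3 made up 4.43% to 7.17% of the NR4A family's FPKM. Nr4a3, Npas4 and Egr3 hold the seed matches to miR-146a-5p shown above. Npas4 measured 3.55, 3.32 and 8.03 CPM in the MSC-EVs group, a log2 difference from NS of 0.15 ± 0.36 (adjusted p = 0.859, edgeR). With the MSC-EVs libraries that held Y-linked counts left out, that difference was 0.80. For Egr3 the log2 difference from NS was -0.98 ± 0.47 (adjusted p = 0.314, edgeR). The part of the seed matches in these values was not tested.

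Nr4a1 was 59.7 to 68.6 CPM in the NS group and 35.5 to 56.9 in the MSC-EVs group, also without overlap. The log2 difference was -0.47 ± 0.16 (adjusted p = 0.167, edgeR), and DESeq2 called it (adjusted p = 0.031). Nr4a2 measured 12.2, 10.4 and 13.9 CPM in the MSC-EVs group, within the NS range except for replicate 2, at a log2 difference of -0.18 ± 0.16 (adjusted p = 0.581, edgeR).

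Egr1 measured 154, 151 and 146 CPM in the NS group and 46.3, 123 and 100 CPM in the MSC-EVs group. Each MSC-EVs library lay below the NS range, but replicate 1 was far lower than the others, and the log2 difference of -0.74 ± 0.36 did not pass (adjusted p = 0.339, edgeR). Egr3 measured 2.46, 9.20 and 3.86 CPM in the MSC-EVs group against 8.37 to 11.5 in the NS group (log2 difference -0.98 ± 0.47, adjusted p = 0.314, edgeR). Arc measured 1.96, 7.20 and 2.53 CPM against 4.16 to 9.15 (log2 difference -0.86 ± 0.56, adjusted p = 0.451, edgeR). For both genes replicates 1 and 3 lay below all NS libraries and replicate 2 lay within their range.

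Egr2 did not share that pattern. Its MSC-EVs libraries, at 3.50, 9.63 and 1.38 CPM, reached to both sides of the NS range of 3.43 to 5.40, and the log2 difference was 0.02 ± 0.72 (adjusted p = 0.994, edgeR). Egr4 was at 0.25 to 1.11 CPM against 0.685 to 1.74 (log2 difference -0.52 ± 0.51, adjusted p = 0.615, edgeR). Ier2 measured 10.6, 16.4 and 11.8 CPM in the MSC-EVs group, a log2 difference of -0.20 ± 0.16 (adjusted p = 0.533, edgeR).

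With 1 library left out, calls among the 10 genes appeared only without MSC-EVs replicate 2. Without it, 4 genes were called lower in the MSC-EVs group by edgeR: Nr4a3 (log2 difference -1.91 ± 0.24, adjusted p = 0.00864), Egr3 (-1.63 ± 0.23, adjusted p = 0.00623), Arc (-1.60 ± 0.33, adjusted p = 0.0362) and Nr4a1 (-0.63 ± 0.12, adjusted p = 0.0268), while calls over all genes rose from 172 to 676. With both libraries that held Y-linked counts left out, replicate 3 stood alone and was assumed to vary like the NS group. The log2 difference from NS was then -0.59 for Egr1, -1.75 for Egr2, -1.38 for Egr3 and -1.90 for Nr4a3. For Arc it was -1.45, and for Npas4 it was 0.80. Leaving out any other 1 library left none of the 10 called, but few or no genes were then called at all. Without NS replicates 1, 2 and 3 the calls over all genes were 164, 32 and 0. Without MSC-EVs replicates 1 and 3 they were 0 and 123. A fit that calls 0 genes says nothing about the 10 in particular.

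Across the 9 libraries the genes moved in part together. Egr3 (r = 0.91), Egr1 (0.90), Nr4a1 (0.85), Nr4a3 (0.80), Arc (0.74) and Ier2 (0.66) followed the mean of the other 9 genes, each standardized on log2 CPM. Egr4 (0.23), Nr4a2 (0.11), Egr2 (0.07) and Npas4 (-0.10) did so little or not at all. These correlations are over libraries that share groups and are given as a description. The mean standardized level of the 10 genes was between -0.173 and 0.139 SD in WT and between 0.384 and 0.86 in the NS group, whereas the MSC-EVs libraries stood at -1.318, 0.155 and -0.307.

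MSC-EVs replicate 1 was the lowest of all 9 libraries for 7 of the 10 genes. MSC-EVs replicate 2 was the highest of its group for 7 genes, and NS replicate 1 the highest of all 9 libraries for 5. The rod marker sum was 17200, 21900 and 24100 CPM in MSC-EVs replicates 1 to 3 and the microglia and macrophage sum 682, 826 and 485 CPM. The summed lens markers were 13.7, 146 and 51.8 CPM and those of cornea, ciliary body and iris 6.84, 13.6 and 9.21 CPM in the same order, both lowest in replicate 1 and highest in replicate 2, as was the mean level of the 10 genes. In WT both sums were highest in replicate 2 (164 and 15.4 CPM) and the mean level in replicate 3 (0.139 SD). In the NS group the lens sum (58.8 CPM) and the mean level (0.86 SD) were highest in replicate 1. The cornea, ciliary body and iris sum was highest in NS replicate 2 (20.1 CPM). The part of these sums in the spread of the 10 genes was not tested.

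**Figure D4:**
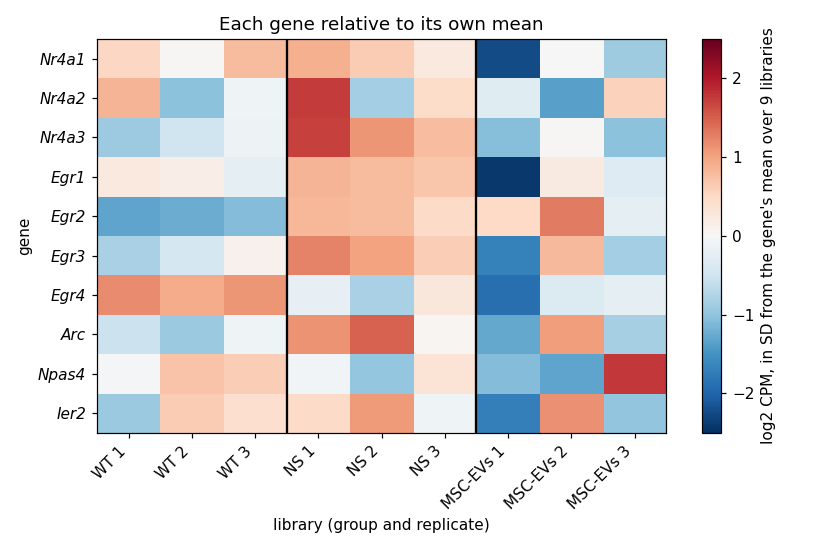
Log2 CPM of each gene in each library, in SD from that gene's mean over the 9 libraries (red above, blue below). The NS libraries are above the mean for most genes, MSC-EVs replicate 1 is below it for all genes but Egr2, and Egr2 and Egr4 separate WT from both rd10 groups in opposite directions.

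The 5 genes outside the 10 whose log2 CPM most resembled this mean level, among 12962 genes with a mean log2 CPM of at least 1, were Irf2bp2 (r = 0.92), Snd1 (0.912), Fos (0.906), Ctdnep1 (0.899) and Alox12b (0.896), over 9 libraries. Fos, the founding immediate-early transcription factor, averaged 58.4 CPM in WT, 86.3 in the NS group and 60.7 in the MSC-EVs group.

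Other genes of the pathway were described from lists. Their counts are to be read against the shares of all genes called, which were 31.2% higher and 30.1% lower in NS against WT, 28.3% and 27.2% in MSC-EVs against WT, and 0.914% and 0.251% in MSC-EVs against NS. Of 19 other immediate-early transcription factors, 15 were called higher and none lower in NS against WT, with a median log2 fold change of 1.02 against 0.01 over all genes. The smallest adjusted p in edgeR belonged to the AP-1 subunit Junb (log2 fold change 1.65 ± 0.08), the Krüppel-like factor Klf10 (1.60 ± 0.08) and the AP-1 subunit Fosl2 (2.52 ± 0.13). In MSC-EVs against WT, 11 of 18 tested were higher and none lower (median 0.95), led by the stress-responsive factor Atf3 (2.04 ± 0.20), the CREB family member Crem (0.83 ± 0.11) and the AP-1 subunit Fosb (1.20 ± 0.17). None of the 19 was called in MSC-EVs against NS (median -0.15).

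Of 25 tested immediate-early genes that are not transcription factors, 16 were higher and 4 lower in NS against WT (median 0.59 against 0.01 over all genes). Gadd45b, a growth arrest and DNA damage protein, rose by a log2 fold change of 2.55 ± 0.12, and Zfp36, which promotes the decay of inflammatory mRNAs, rose by 2.32 ± 0.12, followed by the anti-apoptotic Mcl1 (0.85 ± 0.05). Dusp4 (-0.73 ± 0.09), Arl4d (-1.47 ± 0.20) and Dusp1 (-0.39 ± 0.08) led the genes that fell; both Dusp genes encode phosphatases that switch off MAP kinases. In MSC-EVs against WT, 12 were higher, led by Plk2 (0.56 ± 0.06), Dusp6 (0.64 ± 0.08) and Ccn1 (2.13 ± 0.27), and 3 were lower, Arl4d (-1.85 ± 0.14), Dusp4 (-0.50 ± 0.12) and Dusp1 (-0.60 ± 0.19), with a median of 0.47. None was called in MSC-EVs against NS (median -0.09).

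Of 15 neuronal activity effector genes, 10 were higher in NS against WT (median 0.26), led by Lingo1 (0.56 ± 0.07), the opioid precursor Penk (1.60 ± 0.18) and the synaptotagmin Syt4 (0.48 ± 0.07), and 1 was lower, the secreted peptide precursor Vgf (-0.44 ± 0.09). In MSC-EVs against WT, 8 were higher and none lower (median 0.32), led by Syt4 (0.64 ± 0.05), Lingo1 (0.57 ± 0.08) and the pentraxin Nptx1 (0.41 ± 0.06). None was called between the rd10 groups (median 0.09).

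Of 7 tested binding partners of the 10 genes, 3 were higher and 3 lower in NS against WT, near the shares of all genes (31.2% and 30.1%). The EGR corepressors Nab1 (0.61 ± 0.11) and Nab2 (1.57 ± 0.25) and the NPAS4 partner Arnt2 (0.43 ± 0.07) rose, and the retinoid X receptors Rxra (-0.56 ± 0.07) and Rxrb (-0.20 ± 0.07), which pair with Nr4a1 and Nr4a2 proteins, and Arnt (-0.20 ± 0.07) fell. In MSC-EVs against WT, Nab1 (0.79 ± 0.07), Arnt2 (0.60 ± 0.07) and Nab2 (0.94 ± 0.12) were higher and Rxra (-0.57 ± 0.06), Rxrb (-0.19 ± 0.06) and Arnt (-0.19 ± 0.07) lower. Nab2 averaged 14.4 CPM in WT, 42.4 in the NS group and 27.4 in the MSC-EVs group.

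Of 14 tested upstream regulators (CREB, CRTC, SRF, TCF and MEF2 genes), 7 fell and 3 rose in NS against WT (median -0.28), where 30.1% of all genes were lower and 31.2% higher; whether the list differs from other genes was not tested. Mef2c (-2.20 ± 0.11), Crtc3 (-0.55 ± 0.07) and Elk4 (-0.52 ± 0.08) led the first and Elk3 (0.91 ± 0.11), Mef2a (0.18 ± 0.05) and Mrtfb (0.24 ± 0.08) were the second. In MSC-EVs against WT, 5 were lower, led by Mef2c (-2.07 ± 0.11), Crtc3 (-0.47 ± 0.07) and Atf1 (-0.30 ± 0.08), and 2 higher, Elk3 (0.99 ± 0.11) and Mrtfb (0.35 ± 0.08), with a median of -0.02. No partner and no upstream regulator was called in MSC-EVs against NS. All list values are log2 fold changes ± SE from edgeR, and all named genes passed an adjusted p of 0.05; the shift in rod, microglia and gliosis markers given above moved with these lists, and its part was not tested.

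**Figure D5:**
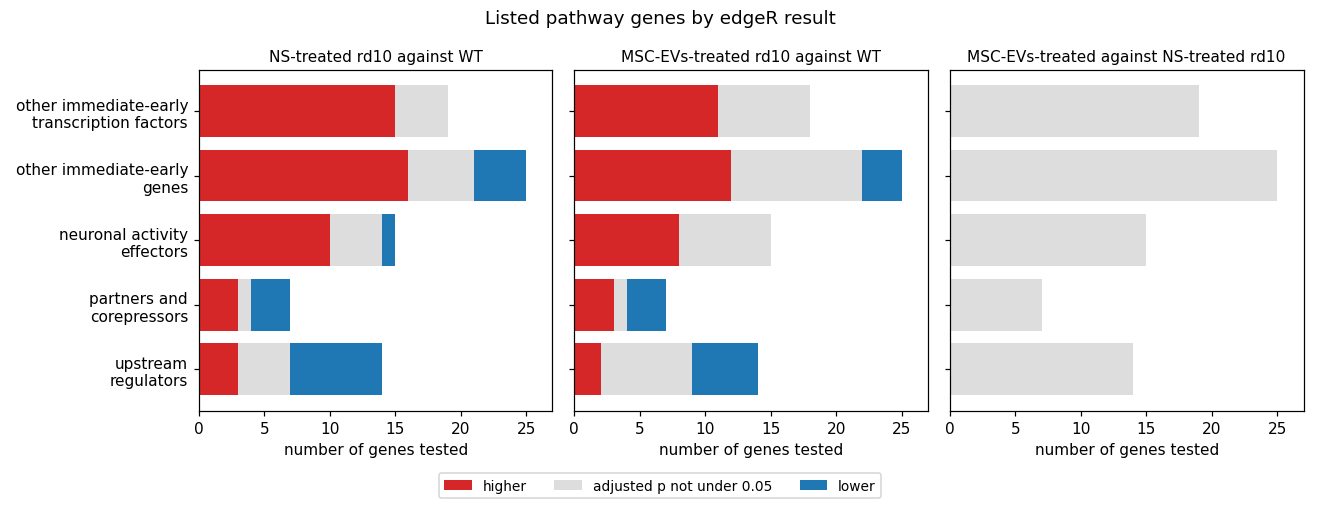
Number of tested genes of each list called higher (red), lower (blue) or neither (gray) in the 3 comparisons (adjusted p under 0.05, edgeR). Of the other immediate-early transcription factors 15 of 19 and 11 of 18 are higher than in WT, and no listed gene is called between the rd10 groups.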

How the data were processed

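Retinal mRNA was enriched with oligo(dT) beads and sequenced on an Illumina platform. The authors deposited 1 table that gives each gene an estimated count and an FPKM value in every library. Their processing notes name fastp, Bowtie2, HISAT2, StringTie 1.3.1 and RSEM; the genome build is not given in the sources used here. Estimated counts were rounded. Genes were filtered with filterByExpr, which all 10 genes passed in each comparison, scaled by TMM and tested with edgeR 4.0.16 in R 4.3.3 (glmQLFit, robust, and glmQLFTest) on the 6 libraries of the 2 groups compared. Benjamini-Hochberg adjustment ran over all genes tested, and a gene was called at an adjusted p under 0.05. The test was checked on simulated data in which all genes and groups had the same spread beyond sampling noise. That check does not cover the wider spread of the MSC-EVs group. Alternatives used DESeq2 1.42.0, limma 3.58.1 on log2(FPKM + 1), other scalings, filters and designs, and the removal of each library. Replicates differed by more than sampling noise (chi-square per degree of freedom 3.99 to 30.2), and each counted as 1 sample. That spread does not show whether they came from separate animals, which the labels do not state. FPKM was used for levels between genes. Gene coordinates are those of GENCODE M21 on GRCm38, matched by identifier, and no gene of the 10 overlapped another.

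The 10 genes and the pathway lists were chosen with earlier results of these data known. Of each list, counts are given in each direction with the 3 genes of smallest adjusted p per direction. Genes alike in pattern are the 5 with the highest correlation with the mean of the 10.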

Additional observations from a re-analysis of the deposited data

How the results depend on the processing

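Of 516 log2 fold changes under other settings, 42 had the opposite sign to the value reported, and 0 of these 42 were called in the same comparison in the report; 4 of the genes concerned (Nr4a3, Egr2, Egr3 and Arc) were called in another comparison. With all 9 libraries in 1 fit, 3 genes were called in NS against WT and 1, Nr4a3, in MSC-EVs against NS. Of all 14908 genes, 8599 and 1026 were called there. With a minimum of 10 counts per library, which left Egr2 and Egr4 untested there, 0 were called in MSC-EVs against WT, against 7636 of all 13753 genes. DESeq2 called 2 in MSC-EVs against NS, edgeR's exact test 1 and limma on log2(FPKM + 1) or log2(FPKM + 0.1) 1 each. Over all 14765 genes these settings called 947, 774, 177 and 204, in the same order. Limma on log2(FPKM + 1) called 1 in MSC-EVs against WT, and 7718 of all 14623 genes. FPKM is not TMM-scaled, and the median of all genes then lay at 0.14 and 0.17 in NS against WT and 0.12 and 0.15 in MSC-EVs against WT for the pseudocounts of 1 and 0.1; the calls of Nr4a1 in NS against WT by both limma fits (0.21 and 0.22) are to be read against that shift, which also covers Nr4a2 (0.07 and 0.09), Nr4a3 (0.04 and 0.05) and Ier2 (0.03 and 0.04) in MSC-EVs against WT. Egr2 in MSC-EVs against NS was -0.04 and -0.21 in those fits and -0.02 with upper-quartile scaling.

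With Y-linked expression as a covariate, signs turned in MSC-EVs against WT for Nr4a2 (0.13), Egr3 (-0.39), Arc (-0.26) and Npas4 (0.50) and in MSC-EVs against NS for Nr4a2 (0.03) and Egr2 (-1.75). Leaving out both MSC-EVs libraries that held Y-linked counts was a setting added after the data were seen, and replicate 3 then stood alone. The turned values there were 0.13 for Nr4a2, -0.38 for Egr3, -0.28 for Arc and 0.55 for Npas4 against WT. Against NS they were 0 for Nr4a2 and -1.75 for Egr2. The cause of these changes was not tested.

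When each library was left out in turn, 6 genes stayed called in NS against WT, where Nr4a1 ranged from -0.01 to 0.10, Nr4a2 from -0.03 to 0.26 and Ier2 from 0 to 0.16. In MSC-EVs against WT, 1 to 4 were called, where calls over all genes ran from 6517 to 8426. The log2 fold change there ranged from -0.15 to 0.06 for Nr4a2, -0.46 to 0.07 for Nr4a3, -0.64 to 0.36 for Egr3, -0.43 to 0.64 for Arc, -0.67 to 0.12 for Npas4 and -0.31 to 0.02 for Ier2. In MSC-EVs against NS, 0 to 4 were called, where calls over all genes ran from 0 to 676. Egr2 ranged from -1 to 0.50 and Npas4 from -0.42 to 0.37.

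Replicate numbers are shared between groups. Deviations of same-numbered libraries correlated at -0.07 to 0.07 in the comparisons with WT and at 0.09, 0.18 and 0.28 in MSC-EVs against NS. The paper states that rd10 littermates received either MSC-EVs or NS. Neither it nor the labels say whether the replicate numbers follow litters, so the libraries were not paired in the main test. With the replicate block, 6, 2 and 0 of the 10 genes were called in NS against WT, MSC-EVs against WT and MSC-EVs against NS, as without it, and calls over all genes went from 172 to 403 in the last; Egr3 against WT was -0.13 and Egr2 against NS was -0.29. In MSC-EVs against NS each of the 6 libraries deviated most like the library of its own number. This held for 4 of 6 libraries in MSC-EVs against WT and 0 of 6 in NS against WT. It is a hint of pairing between the rd10 groups that the labels neither state nor exclude.

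Counts of 6 to 9 in single libraries limit what can be said of the size of change in Egr2 and Egr4, and 3 libraries a group limit all 3 comparisons.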
